A study of Mus musculus with 12 samples.

Results

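The invariant NKT alpha chain is the T cell receptor alpha chain that joins the V region Trav11 to the J region Traj18. Its members were taken as every TRAC clonotype listed with J18 and with V11, V11D or both joined, and 217 of 509702 listed TRAC clonotypes met this rule, with 2898 of 1145380 TRAC UMIs. A clonotype here is a nucleotide CDR3 with its V and J regions in 1 library, and a UMI is a molecular tag that marks 1 cDNA molecule, counted where at least 3 reads carried it. Every member was listed with V11 and V11D joined, the name of a pair of gene copies with the same V sequence, and no clonotype was listed with V11 or V11D alone. The other 8646 clonotypes with J18 carried any other V region and served as the comparison.

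The libraries came from wild-type mice that carried tumors of a mouse oral cancer line and received control IgG, IL-10-Fc (interleukin-10 fused to an antibody Fc part), αCSF1R (an antibody that blocks the CSF1 receptor of macrophages) or BF10 (that antibody fused to IL-10). Per the labels, each agent was given at an equivalent dose of 30 mg/kg for 3 doses spaced 3 days apart, whereas the study's methods for tumor growth give amounts per body weight that differ between the agents. CD8+ T cells were then isolated with magnetic beads from the tumor, the spleen and the tumor-draining lymph node (tdLN), and material of 1 treatment was mixed for each library (N = 3 in the design text, taken here as 3 mice). There was 1 library for each treatment and tissue, 12 in all, with 23650 to 137078 TRAC UMIs and 32784 to 210616 TRBC UMIs each. A treatment could therefore not be tested within a tissue, and the intervals on shares and ratios below cover counting error only. The titles of the tdLN samples do not repeat the CD8 selection that their other labels and the study's text give, and purity cannot be read from these libraries, so how far the tdLN shares hold chains of CD8-negative cells was not tested. The strain, sex and age of the mice of these libraries are not given in the labels. The study's text pairs this cancer line with C57BL mice where it describes the RNA sequencing of whole tumors. It does not state the strain separately for the receptor libraries.

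Invariant NKT cells are T cells that recognise lipids presented by CD1d, an MHC-like molecule, rather than peptides on classical MHC. In mice their alpha chain is nearly always Trav11 joined to Traj18 with a CDR3 of fixed length, and it pairs with a few beta chains, mainly those of the Trbv13 family, Trbv29 and Trbv1. Most of these cells in mice carry CD4 or neither coreceptor, and CD8 is rare among them. They release cytokines within hours of activation and are found in spleen and liver and, less often, in lymph nodes.

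The genes lie in the alpha chain locus on chromosome 14 of GRCm38, all on the plus strand. The annotation GENCODE M21 places Trav11 at chr14:53519303-53519859, its copy Trav11d at chr14:52824357-52824912, a further copy Trav11n at chr14:53135122-53135678 and Traj18 at chr14:54200777-54200842. The second exons of Trav11 and Trav11d did not differ over 290 bases. Trav11n differed from Trav11 at 6 of 291 bases, is annotated as a V pseudogene, and had a stop codon at codon 46 of this reference. Its last 77 bases were the same as in Trav11, so the CDR3 end itself cannot tell the copies apart. The end of the Trav11 exon and the whole of Traj18 are shown first, as read from GRCm38, because the junction of both makes the CDR3, and the capitals mark the bases that stand in the leading form of the CDR3.
Trav11, chr14:53519830-53519859: acactgccacctacatcTGTGTGGTGGGCG
Traj18, chr14:54200777-54200842: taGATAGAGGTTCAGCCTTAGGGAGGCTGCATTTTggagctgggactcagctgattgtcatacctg

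The CDR3 that led the members over the 12 libraries had 15 residues with Gly-Asp at positions 4 and 5, counted from the first cysteine. It held 2401 of the 2898 member UMIs, or 82.9%, and was listed in 11 of the 12 libraries. It was written in 19 nucleotide forms, of which the 6 with the most UMIs are shown as deposited, with codons 4 and 5 in capitals, because the forms differ mainly there.
form 1: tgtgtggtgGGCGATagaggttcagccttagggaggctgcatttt
form 2: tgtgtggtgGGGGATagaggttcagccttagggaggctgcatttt
form 3: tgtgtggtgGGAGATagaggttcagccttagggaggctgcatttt
form 4: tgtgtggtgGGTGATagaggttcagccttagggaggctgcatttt
form 5: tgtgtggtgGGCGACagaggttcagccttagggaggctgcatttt
form 6: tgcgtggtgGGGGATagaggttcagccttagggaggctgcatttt

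Forms 1 to 4 differed in the third base of codon 4, where all 4 bases were found, and all of them encode glycine. Form 1 had 949 UMIs in 11 libraries, form 2 had 634 in 9, form 3 had 457 in 10 and form 4 had 305 in 8. Together they held 97.7% of the Gly-Asp UMIs. Form 5, with the other aspartate codon, had 36 UMIs, and the other 14 forms had 20 UMIs in all, 10 of them with a single UMI.

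Forms 1 and 3 can be spelled from the germline segments without an added base. In form 1, 13 bases matched the end of Trav11 and 33 bases matched Traj18, which overlap by 1 base in the 45 bases of the CDR3. In form 3, 11 bases matched Trav11 and 34 matched Traj18. These 2 forms held 1406 UMIs, or 58.6% of the Gly-Asp UMIs. Forms 2 and 4 each carried 1 base that neither segment gives, at the third base of codon 4, and held 939 UMIs, or 39.1%. A match to the germline is a description of the letters and does not show how a given chain was joined.

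In spleen and tdLN, the 15-residue length set the members apart from Traj18 chains with V regions other than the V11N copies. The V11N chains with Traj18, described below, shared it, with 95.2% of their UMIs at 15 residues. Of the member UMIs, 98.1% had a CDR3 of 15 residues, 0.759% had 14 and 0.690% had 16, over a range of 9 to 17. Traj18 chains with another V region, the V11N copies left out, had 34.4% of their UMIs at 15 residues and 29.4% at 14, over a range of 7 to 44.
The share at 15 residues was 99.1%, 94.5%, 99.6% and 98.2% of the member UMIs in the spleens, in the order control IgG, IL-10-Fc, αCSF1R, BF10. In the tdLN it was 98.2%, 98.1%, 98.7% and 99.3% in the same order. All 8 of these libraries lay above every library of the other Traj18 chains without the V11N copies, whose share at 15 residues ran from 21.7% to 37.9%. In the tumors the members were few: 19 of 19 UMIs had 15 residues with control IgG, 17 of 21 with IL-10-Fc, 0 of 1 with αCSF1R and 7 of 18 with BF10. In the BF10 tumor this was 38.9%, near the 34.3% of the other Traj18 chains there without the V11N copies. The length thus did not set the members apart in that library.

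**Figure D1:**
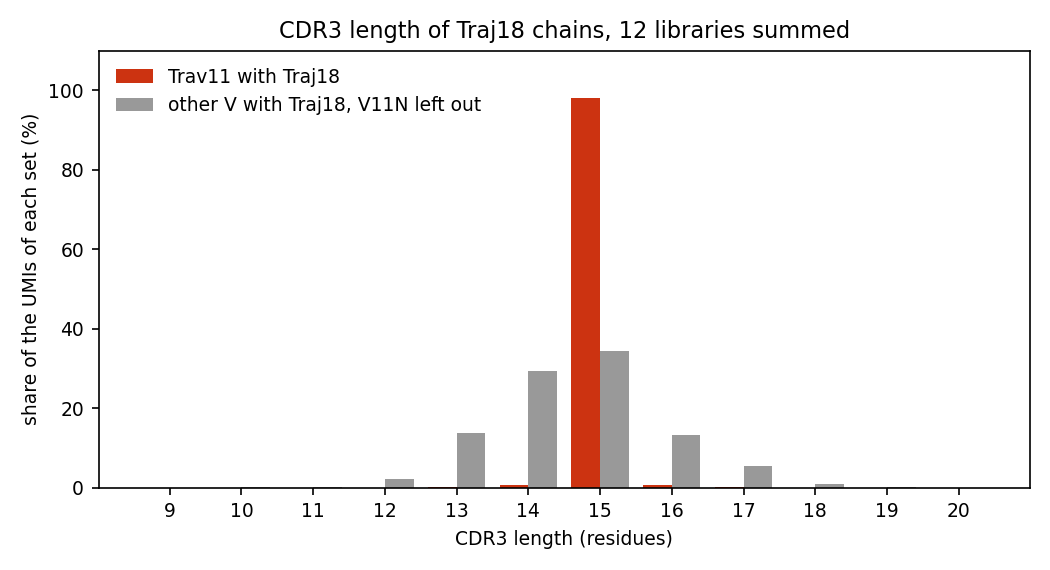
Share of UMIs (%) at each CDR3 length in residues, from 9 to 20, for Trav11 with Traj18 (red) and for Traj18 with other V regions without the V11N copies (grey), with the 12 libraries summed. The red bars stand almost wholly at 15 residues (98.1%), where the grey bars reach 34.4%.

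Counted as UMIs, the members were less abundant in every tumor library than in any spleen or tdLN library. In the tumors, the chain held 19 of 79926 TRAC UMIs with control IgG, or 0.0238% (95% Wilson interval 0.0152% to 0.0371%). With IL-10-Fc it held 21 of 98821, or 0.0213% (0.0139% to 0.0325%), and with BF10 18 of 117661, or 0.0153% (0.00968% to 0.0242%). The αCSF1R tumor, the library with the fewest TRAC UMIs, had 1 member UMI of 23650, or 0.00423% (0.000746% to 0.0239%), below the 0.0127% that 3 UMIs would give there. These 4 intervals overlapped.
In the spleens, the chain held 534 of 115039 TRAC UMIs with control IgG, or 0.464% (0.427% to 0.505%), 557 of 109939 with αCSF1R, or 0.507% (0.466% to 0.550%), and 386 of 118744 with BF10, or 0.325% (0.294% to 0.359%). The IL-10-Fc spleen had only 55 of 121278, or 0.0454% (0.0348% to 0.0590%), and its interval lay below those of the other 3 spleens.
In the tdLN, the chain held 504 of 101598 TRAC UMIs with control IgG, or 0.496% (0.455% to 0.541%), 421 of 137078 with IL-10-Fc, or 0.307% (0.279% to 0.338%), 231 of 65745 with αCSF1R, or 0.351% (0.309% to 0.40%), and 151 of 55901 with BF10, or 0.270% (0.230% to 0.317%). The interval of the control IgG library lay above those of the other 3, which overlapped each other.
In order of their shares, the 12 libraries ran from the 4 tumors over the IL-10-Fc spleen to the other 3 spleens and the 4 nodes, which were mixed.

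**Figure D2:**
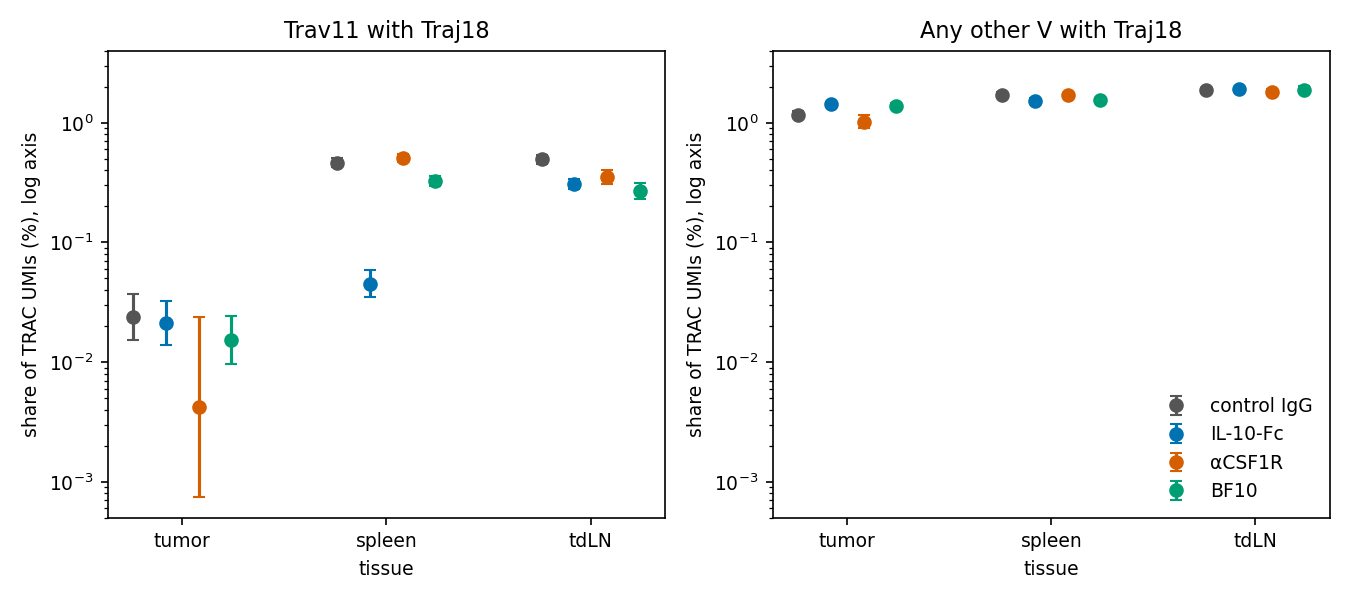
Share of TRAC UMIs (%, log axis) of Trav11 with Traj18 (left) and of any other V with Traj18 (right) in each of the 12 libraries, by tissue and coloured by treatment, with 95% Wilson intervals. The 4 tumors and the IL-10-Fc spleen (0.0454%) lie below the other libraries on the left, and all 12 lie between 1.02% and 1.90% on the right.

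Over the 4 libraries of a tissue, the share averaged 0.0161% ± 0.00870 (SD, n = 4) in tumor, 0.335% ± 0.208 in spleen and 0.356% ± 0.0990 in tdLN, where the SD holds treatment and library together. It was higher in spleen than in tumor in 4 of 4 treatments, by 0.319 percentage points on average (SD of the paired differences 0.212), and higher in tdLN than in tumor in 4 of 4, by 0.340 points (SD 0.0962). With 4 pairs, the two-sided exact sign-flip permutation test cannot give a p below 0.125, and both differences reached that value (0.161 after Benjamini-Hochberg adjustment over the 9 tests of tissue). The exact permutation test that leaves out the pairing by treatment gave p = 0.0286 for each, its smallest possible value (adjusted p = 0.0367). That test takes the 4 libraries of a tissue, each of another treatment, as replicates. Each tissue was also deposited as its own set of libraries, so tissue and library set cannot be told apart. Spleen and tdLN differed by 0.0209 points, with tdLN higher in 2 of 4 treatments (exact permutation p = 0.875), and the sign of this difference turned to -0.0595 points without the IL-10-Fc pair. In bulk RNA, fewer cells of a type and less RNA per cell cannot be told apart.

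The other chains with Traj18 also differed between tissues, by a smaller factor. Any other V with Traj18 made up 1.17%, 1.42%, 1.02% and 1.39% of TRAC UMIs in the tumors in the same order of treatments, 1.72%, 1.54%, 1.70% and 1.54% in the spleens, and 1.87%, 1.90%, 1.80% and 1.89% in the tdLN. The mean was 1.25% in tumor, 1.62% in spleen and 1.87% in tdLN. All 3 tissue differences had the same sign in 4 of 4 treatments and the smallest p the exact permutation test allows, 0.125 (adjusted p = 0.161).
Among all Traj18 UMIs, the share that carried Trav11 averaged 1.24% ± 0.667 (SD, n = 4) in tumor, 16.1% ± 9.15 in spleen and 15.9% ± 3.71 in tdLN, a measure that does not depend on the TRAC total. It was 2.0%, 1.47%, 0.413% and 1.09% in the 4 tumors, 21.3%, 2.87%, 23.0% and 17.4% in the 4 spleens, and 20.9%, 13.9%, 16.3% and 12.5% in the 4 nodes in that order. The difference was 14.9 percentage points for spleen over tumor and 14.7 for tdLN over tumor (4 of 4 treatments each, exact permutation p = 0.125, adjusted p = 0.161). For tdLN over spleen it was -0.232 points, with tdLN higher in 1 of 4 (p = 0.875 in the same exact permutation test).

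Counted as clonotypes rather than UMIs, the tissues lay closer together. The members were 0.0157% to 0.0528% of the TRAC clonotypes of a tumor library, 0.0209% to 0.0614% in spleen and 0.0411% to 0.0730% in tdLN. These ranges overlapped. The UMIs per member clonotype were 3.8, 3.5, 1 and 1.5 in the tumors, 18.4, 4.23, 22.3 and 20.3 in the spleens, and 14.8, 15.04, 7.97 and 9.44 in the tdLN. Over all TRAC clonotypes of a library this number ran from 1.44 to 9.73, and it was 8.44, 2.58, 9.73 and 2.14 in the 4 tumors. The members thus lay below the average clonotype in the tumors given control IgG, αCSF1R and BF10, and above it in the other 9 libraries.

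The treated libraries were compared with the control IgG library of their tissue, which is shared by the 3 ratios of that tissue. In the spleen, the share of the chain with IL-10-Fc was 0.0977 of that with control IgG (95% interval 0.0740 to 0.129), and this interval lay below those of all other ratios but that of the αCSF1R tumor, which rests on 1 UMI. The ratio was 0.700 with BF10 (0.614 to 0.798) and 1.09 with αCSF1R (0.970 to 1.23). In these spleens the ratio for other V regions with Traj18 was 0.894 with IL-10-Fc, 0.987 with αCSF1R and 0.898 with BF10, and the ratio for Trav11 with another J region was 1.09, 1.16 and 1.28. For IL-10-Fc the intervals of these ratios, 0.839 to 0.952 and 0.894 to 1.34, did not overlap that of the chain. These ratios are sums over many partners, and the V11N chains with Traj18 among them, described below, went from 122 UMIs in the control IgG spleen to 7 in the IL-10-Fc spleen.
In the tdLN, all 3 treated libraries lay below control IgG, with ratios of 0.619 under IL-10-Fc (interval 0.544 to 0.704), 0.708 under αCSF1R (interval 0.606 to 0.827) and 0.545 under BF10 (interval 0.454 to 0.653). The ratios of other V regions with Traj18 were 1.02, 0.964 and 1.01 there. For αCSF1R and BF10 in the tdLN the ratio depended on what was counted. With clonotypes of at least 2 UMIs only, in numerator and total, the ratio was 1.03 (0.875 to 1.20) for αCSF1R and 0.871 (0.723 to 1.05) for BF10. With TRAC plus TRBC UMIs as the total it was 0.375 (0.321 to 0.438) and 0.261 (0.217 to 0.312). These 2 libraries had the fewest reads per UMI, with 8.31% and 6.49% of their TRAC UMIs at 7 reads or more against 30.8% to 73.3% in the other 10.
In the tumors, the ratios were 0.894 under IL-10-Fc (interval 0.481 to 1.66), 0.178 under αCSF1R (interval 0.0238 to 1.33) and 0.644 under BF10 (interval 0.338 to 1.23), so no difference was detectable in this count. With each clonotype counted once, the IL-10-Fc tumor ratio was 0.297 (0.0907 to 0.974). With the leading CDR3 alone, the BF10 tumor ratio was 0.151 (0.0326 to 0.699). With the V11N chains added, the intervals of all tumor ratios lay below 1. The control IgG tumor then included 1 V11N clonotype of 72 UMIs.

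**Figure D3:**
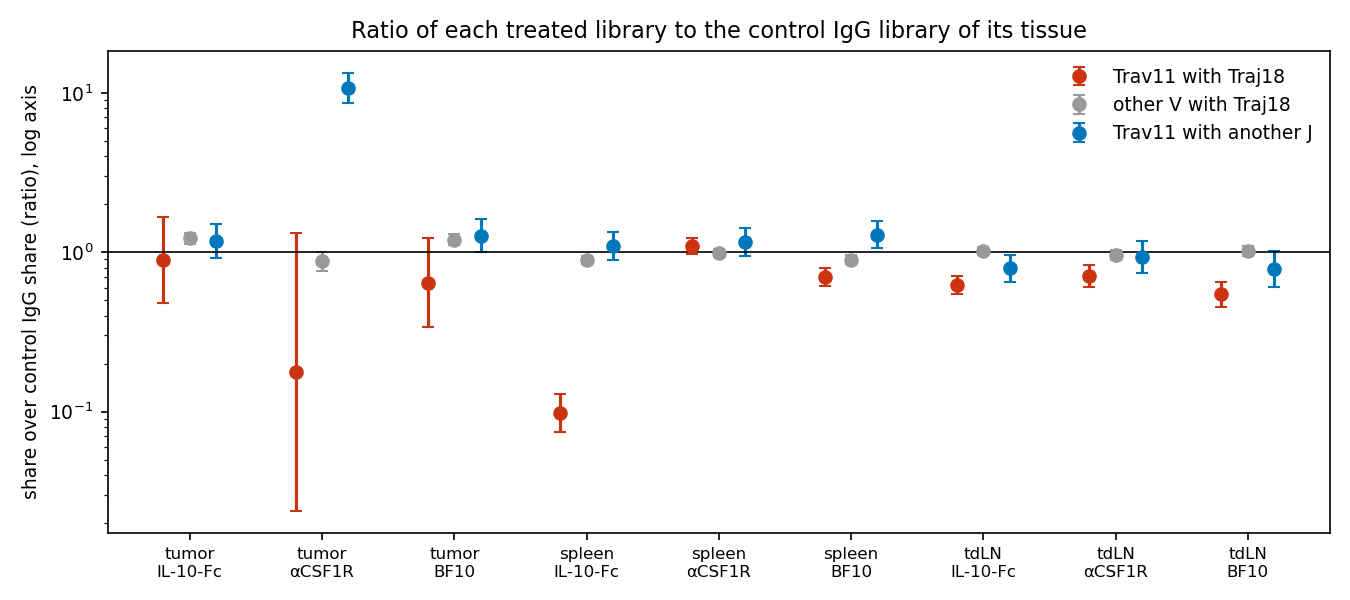
Ratio of the share of TRAC UMIs in each treated library to that in the control IgG library of the same tissue (log axis) for Trav11 with Traj18 (red), other V with Traj18 (grey) and Trav11 with another J (blue), with 95% intervals from UMI counts. The red point of the IL-10-Fc spleen (0.0977) lies far below 1 while its grey and blue points lie at 0.894 and 1.09, and the blue point of the αCSF1R tumor stands at 10.8.

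Markers of other T cells that could be in the isolates moved with some of these values. Gamma-delta chains (TRGC and TRDC) made up 0.677% of the UMIs of all 4 chains in the IL-10-Fc spleen against 1.96%, 1.79% and 2.30% in the spleens given control IgG, αCSF1R and BF10. They made up 4.96% to 6.34% in the tdLN and 4.27%, 0.873%, 8.93% and 0.898% in the tumors. Trav1 joined to Traj33, the alpha chain of MAIT cells, which recognise vitamin B metabolites, had 13 UMIs in the IL-10-Fc spleen against 23, 15 and 8 in the other spleens, 9 to 83 in the tdLN and 0 to 14 in the tumors. The gamma-delta share was thus lowest in the same spleen in which the members were lowest, and the MAIT-type chain was not. The part of the gamma-delta cells and of the purity of the isolates in these results was not tested. The libraries hold receptor chains only, so CD4 and CD8 transcripts were not measured.

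The same CDR3 was also listed with the copy V11N, which the rule counts among the other V regions. Chains with Traj18 and V11N, or with V11, V11D and V11N joined, had 599 UMIs in 69 clonotypes, and 452 of these UMIs carried the Gly-Asp CDR3. Form 1 was listed with these V regions at 237 UMIs in 7 libraries, form 2 at 119, form 3 at 65 and form 4 at 21, the same order as among the members. V11N itself had 64.0% of its UMIs with Traj18, near the 56.7% of V11 and V11D and far above the 1.87% over all TRAC UMIs. The GRCm38 copy of Trav11n holds a stop codon, and whether these chains came from that gene, from another allele or from the other copies was not tested.
In the order control IgG, IL-10-Fc, αCSF1R, BF10, these chains numbered 122, 7, 87 and 84 UMIs in the spleens, so that the IL-10-Fc spleen was again the lowest, and 76, 78, 24 and 28 in the tdLN. With them added, the share of TRAC UMIs was 0.570%, 0.0511%, 0.586% and 0.396% in the spleens and 0.571%, 0.364%, 0.388% and 0.320% in the tdLN. In the tumors they numbered 72, 9, 9 and 3, and their Gly-Asp UMIs 0, 4, 5 and 0. With them added, the tumor shares were 0.114%, 0.0304%, 0.0423% and 0.0178%. The control IgG tumor then lay above the IL-10-Fc spleen at 0.0511%. The 72 UMIs of the control IgG tumor were a single clonotype of 15 residues that did not carry the Gly-Asp CDR3, and it is shown with codons 4 to 6 in capitals because it alone outweighed the 19 member UMIs of that library.
V11N clonotype of the control IgG tumor: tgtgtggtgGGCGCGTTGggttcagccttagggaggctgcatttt

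Within the members, the Gly-Asp CDR3 held most of the UMIs in every spleen and tdLN library. It held 467 of 534 member UMIs with control IgG in the spleen, or 87.5% (95% Wilson interval 84.4% to 90.0%), 44 of 55 with IL-10-Fc, or 80.0% (67.6% to 88.4%), 474 of 557 with αCSF1R, or 85.1% (81.9% to 87.8%), and 328 of 386 with BF10, or 85.0% (81.1% to 88.2%). The interval of the IL-10-Fc spleen overlapped those of the other 3 spleens.
In the tdLN it held 77.4%, 86.0%, 78.4% and 86.1% in the same order. The tissue means were 84.4% ± 3.14 (SD, n = 4) in spleen and 82.0% ± 4.73 in tdLN.
In the tumors it held 9 of 19 member UMIs with control IgG, 14 of 21 with IL-10-Fc, 0 of 1 with αCSF1R and 2 of 18 with BF10. In the BF10 tumor the 12 member clonotypes had 12 different amino acid CDR3s, 6 of which tied for the lead with 2 UMIs each, and the αCSF1R tumor held a single chain of 14 residues. The Gly-Asp CDR3 led in the other 10 libraries.
As a share of TRAC UMIs, the Gly-Asp CDR3 was 0.0113%, 0.0142%, 0% and 0.00170% in the tumors, while the other members were 0.0125%, 0.00708%, 0.00423% and 0.0136%. For the αCSF1R tumor the count of 0 allows a share of up to 0.0127%. In the spleens, the Gly-Asp CDR3 was 0.406%, 0.0363%, 0.431% and 0.276% and the other members 0.0582%, 0.00907%, 0.0755% and 0.0488%, so that both were lowest in the IL-10-Fc spleen.

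The nucleotide forms kept similar proportions in spleen and node. Form 1 was the leading form in all 8 of these libraries, with 45.4%, 45.5%, 43.0% and 34.8% of the Gly-Asp UMIs in the spleens in the order of treatments above and 38.7%, 35.1%, 34.3% and 39.2% in the tdLN. Form 2 averaged 27.3% ± 6.08 (SD, n = 4) in spleen and 28.4% ± 2.19 in tdLN, form 3 averaged 16.8% ± 2.31 and 20.3% ± 3.16, and form 4 averaged 12.3% ± 2.78 and 11.7% ± 4.16. The spread of each form overlapped between the 2 tissues. In the tumors, form 3 led with 7 of 9 UMIs with control IgG and 7 of 14 with IL-10-Fc, form 1 had both UMIs with BF10, and form 4 was not listed.
The number of forms in a library was 2, 3, 0 and 1 in the tumors, 7, 4, 9 and 4 in the spleens and 9, 9, 5 and 6 in the tdLN. At the depth of the smallest library, 23650 TRAC UMIs, the expected number was 0.362 to 2.08 in the tumors other than αCSF1R, 3.25 to 6.24 in the spleens and 4.74 to 5.99 in the tdLN. This makes the TRAC total equal and not the number of Gly-Asp UMIs, so a low share of the CDR3 also lowers it. The number over all libraries fell from 19 to 8 when forms 1 base from a form with at least 10-fold more UMIs in the same library were merged, so 11 forms were single-base neighbours of a far more abundant form. Of the 311411 combinations of V, J and amino acid CDR3 in TRAC, 0.000963% had 19 or more forms, a count that rises with the number of UMIs.

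**Figure D4:**
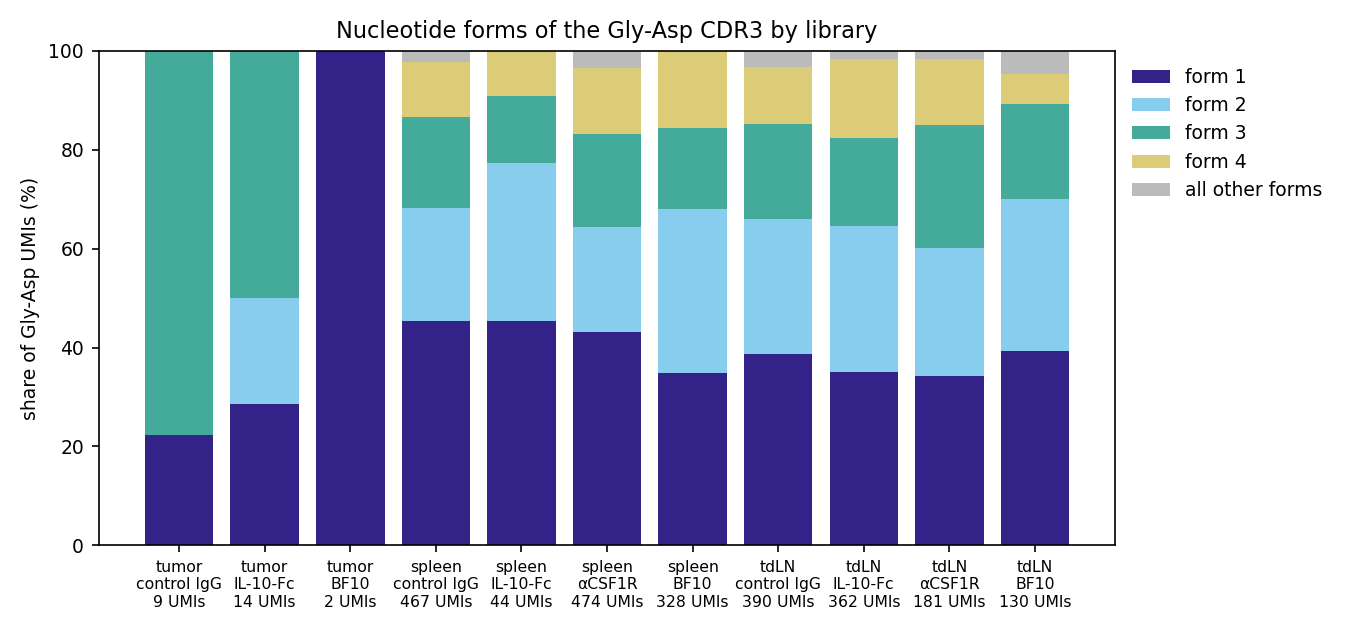
Share (%) of the Gly-Asp UMIs held by forms 1 to 4 and by all other forms in each library that listed the CDR3, with its Gly-Asp UMIs under each bar. Form 1 holds 34.3% to 45.5% in every spleen and tdLN bar, and the 3 tumor bars rest on 2 to 14 UMIs.

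Member clonotypes recurred between libraries. Of the 119 distinct member sequences, 29, or 24.4%, were listed in at least 2 libraries, where the share over all TRAC clonotypes was 15.3%, and 4 were listed in at least 8, where the share over all TRAC clonotypes was 0.412%. These 4 are forms 1 to 4. The 29 shared sequences held 2746 of the 2898 member UMIs, or 94.8%, and 90 sequences were listed in 1 library each.

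By UMIs, the other members of 15 residues were mostly variants of the same chain at positions 4 and 5. Of the 64 amino acid CDR3s among the members, 39 had 15 residues without being the leading one, with 443 UMIs, and 22 of these differed from it only at positions 4 or 5 and held 402 UMIs, or 90.7% of the 443. The 5 listed in the most libraries are shown in their leading nucleotide form, with codons 4 and 5 in capitals where the CDR3 has 15 residues, to show that the bases after the junction are those of Traj18.
Ala-Asp: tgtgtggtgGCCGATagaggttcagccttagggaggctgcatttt
Gly-Ala: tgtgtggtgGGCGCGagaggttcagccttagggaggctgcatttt
Val-Asp: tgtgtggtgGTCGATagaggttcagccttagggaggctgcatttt
Gly-Asn: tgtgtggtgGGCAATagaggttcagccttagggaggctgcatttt
CDR3 of 14 residues: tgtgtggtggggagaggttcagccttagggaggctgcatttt

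Ala-Asp and Val-Asp were the most abundant of these 5. Ala-Asp had 124 UMIs in 8 libraries and 5 nucleotide forms, with 21, 1, 37 and 21 UMIs in the spleens and 15, 9, 9 and 11 in the tdLN, and 0 in the tumors, whose member UMIs are too few to show its absence. Val-Asp had 87 UMIs in 7 libraries, with 17, 0, 20 and 21 in the spleens and 10, 9, 5 and 5 in the tdLN. The IL-10-Fc spleen was the lowest library of spleen and node for both, with 1 and 0 UMIs. It also had the fewest member UMIs of these libraries, at 55. These counts therefore do not separate the variants from the members as a whole.
Gly-Ala was spread otherwise, with 30 UMIs in 8 libraries, 4 of them in the control IgG tumor and 4 in the IL-10-Fc spleen. Gly-Asn had 24 UMIs in 7 libraries, of which 2 were in the BF10 tumor. The CDR3 of 14 residues had 11 UMIs in 6 libraries, 4 in the IL-10-Fc tumor and 2 in the BF10 tumor. Counts of this size allow no order among the libraries.

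The preference of Trav11 for Traj18 was read from the partners of each segment. Over the 12 libraries summed, Trav11 with Traj18 had 2898 UMIs where the product of the V and J shares gave 95.6, a ratio of 30.3, which ranked 1 among the 4072 pairs with an expected count of at least 20. The median ratio was 0.896 and the next highest 29.7, for V5D-4 with J53. Trav11 is therefore not alone at this ratio, and 1 large clonotype can set such a ratio for a pair.
Traj18 took 75.2%, 21.3%, 74.1% and 62.4% of the Trav11 UMIs in the spleens, 72.1%, 66.9%, 66.2% and 64.3% in the tdLN, and 15.1%, 11.9%, 0.292% and 8.26% in the tumors. Trav11 with any other J held 0.134% to 0.196% of TRAC UMIs in 11 libraries, tumors included, and 1.44% in the αCSF1R tumor. The 3 J regions that followed Traj18 were Traj27 with 585 UMIs, Traj32 with 211 and Traj33 with 176. Of the Traj27 UMIs, 315 were a single clonotype of the αCSF1R tumor.

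Traj18 with other V regions was spread over many genes. The 5 with the most Traj18 UMIs were V7D-2 with 1349, V3N-3 with 790, V12N-2 with 764, V12N-3 with 731 and V14-2 joined with V14N-2 with 621, and Traj18 took 1.33% to 2.97% of the UMIs of each, close to the 1.87% over all TRAC. With the V11N chains left out, in 10 of the 12 libraries the leading amino acid CDR3 was the same one of 13 residues, listed most often with V7D-2, V14-3 or V14D-3 and V14N-3 joined, which held 0.0456% to 0.0894% of TRAC UMIs and was found in all 12 libraries. With V11N counted, the Gly-Asp CDR3 led instead in the control IgG spleen (110 UMIs against 66), the BF10 spleen (76 against 74) and the control IgG tdLN (67 against 51). The CDR3 of 13 residues is shown to contrast its shorter junction with that of the members.
CDR3 of 13 residues: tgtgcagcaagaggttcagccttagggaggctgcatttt
In the control IgG tumor the leading chain was a V3N-3 chain of 14 residues with 144 UMIs, and in the αCSF1R tumor a chain of 17 residues with V6D-5 and V6N-5 joined and 36 UMIs.

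The beta chains known to pair with the invariant chain were measured in the same libraries, but chains are not paired by cell here. The Trbv13 family averaged 12.99% ± 2.11 of TRBC UMIs (SD, n = 4) in tumor, 15.6% ± 1.45 in spleen and 16.7% ± 0.437 in tdLN. Trbv29 averaged 9.64% ± 4.87, 12.5% ± 2.13 and 7.52% ± 0.561, and Trbv1 3.85% ± 1.43, 5.96% ± 0.334 and 6.50% ± 0.464. These shares are far larger than that of the alpha chain, so most of these beta chains in any library belong to other cells.
In the IL-10-Fc spleen, where the members were lowest, the shares were 4.38% for Trbv13-1, 5.17% for Trbv13-2, 5.06% for Trbv13-3, 14.2% for Trbv29 and 5.46% for Trbv1. In the other 3 spleens they were 4.33% to 5.59%, 5.11% to 6.23%, 4.99% to 5.76%, 9.39% to 13.3% and 6.09% to 6.15%. Trbv1 was the only one of the 5 that lay below the other spleens, and Trbv29 lay above them. In the αCSF1R tumor, Trbv13-2, Trbv13-3, Trbv29 and Trbv1 were the lowest of the 12 libraries, at 2.71%, 1.59%, 5.01% and 2.19%. Trbv13-1 was instead the highest of the tumors there, at 5.62%. Its largest clonotype held 3.51% of the TRBC UMIs of that library.

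**Figure D5:**
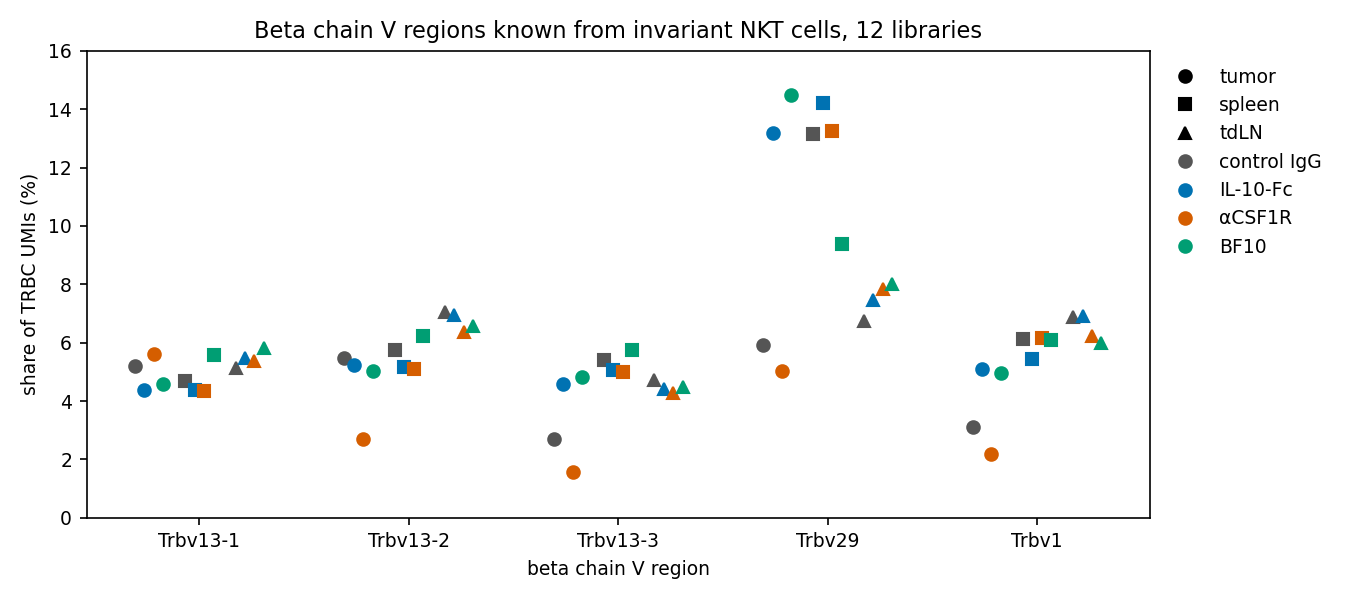
Share of TRBC UMIs (%) of Trbv13-1, Trbv13-2, Trbv13-3, Trbv29 and Trbv1 in each library, with tissue as the marker shape and treatment as the colour. The IL-10-Fc spleen (blue square) is at the level of the other spleens for the Trbv13 genes, and lowest of them for Trbv1 (5.46%).

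The V regions whose share followed that of the chain most closely over the 12 libraries were, among 99 TRAC V regions, V14-2 joined with V14N-2 (Spearman rho 0.80, Pearson r 0.69), V9D-1 (0.76 and 0.71) and V4-3 joined with V4D-3 (0.66 and 0.59). Among 22 TRBC V regions they were V1 (0.84 and 0.75), V31 (0.72 and 0.63) and V3 (0.64 and 0.60). All 6 had their lowest mean in tumor, and the 12 libraries fall into tissues, so these values describe a shared order of tissues in the same libraries.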

How the data were processed

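T cell receptor libraries of CD8+ T cells were made by the authors with the QIAseq immune repertoire kit from 100 ng of RNA, and clonotypes with their V region, J region and CDR3 were called in the vendor's portal. Counts were deposited by the authors without normalization, as the number of UMIs per clonotype at read minimums of 3, 4, 5, 6 and 7. The fraction deposited for each clonotype equalled its UMIs with at least 3 reads over the total of its library and chain. The labels name mm10; the germline reference, the aligner and the software versions are not given in the sources used here. The labels give 1 dose for all agents, and those in the study's methods differ between agents.

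Shares, Wilson 95% intervals and ratios with 95% log intervals were computed with Python 3.11.15, numpy 2.4.6, pandas 2.3.3 and scipy 1.17.1. The intervals were tested on simulated data at counts near those of the spleen and tdLN libraries with the most member UMIs. There, 94.4% of 500 share intervals and 95.8% of 500 ratio intervals held the true value. The smaller counts of the tumors, the IL-10-Fc spleen and the αCSF1R and BF10 tdLN were not simulated. UMI intervals and floors (3 UMIs) cover counting error only. Tissues were compared by the two-sided exact sign-flip permutation test over 4 treatments, with Benjamini-Hochberg adjustment over 9 tests. Germline sequence was read from GRCm38 (the assembly that mm10 names) with GENCODE M21. Sequences are printed as nucleotides, and a CDR3 is named by its residues 4 and 5.

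The CDR3s and genes named were chosen by rank: the leading member CDR3 overall and per library, its 6 forms with the most UMIs, the 5 further member CDR3s in the most libraries, the leading CDR3 of the other Traj18 chains per library, the 5 V and 3 J regions with the most UMIs beside the members, 5 Trbv genes, and 3 V regions per chain, with a mean share of at least 0.1%, by Spearman rho. Members and lists were chosen with earlier results of these data known. Of the members, 1 clonotype had an undetermined residue. All deposited columns used belonged to mapped libraries, and the UMI columns for 4, 5 and 6 reads were not used.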

Additional observations from a re-analysis of the deposited data

Results flagged for a closer look

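Among 39 sets of 4 libraries of a tissue, 3 held a library set apart from the other 3 by Dixon's criterion, which chance meets in about 1 in 20. The share of TRAC UMIs of Trav11 with a J region other than Traj18 was 1.44% in the αCSF1R tumor, against 0.134% to 0.170% in the other tumors. The Trbv13-2 share of TRBC UMIs was 2.71% in the same library, against 5.05% to 5.46%. The Trbv1 share was 5.46% in the IL-10-Fc spleen, against 6.09% to 6.15% in the other spleens. The member share of the IL-10-Fc spleen itself did not meet the criterion.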

How the results depend on the processing

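Settings were changed 1 at a time, and adding V11N was chosen after seeing the data. The mean member share stayed higher in spleen and in tdLN than in tumor under every alternative, by 0.00995 to 0.418 and 0.0235 to 0.525 percentage points. Leaving out a treatment gave 0.258 to 0.418 for spleen over tumor, 0.296 to 0.368 for tdLN over tumor and -0.0595 to 0.0796 for tdLN over spleen, negative without IL-10-Fc. Without pairing by treatment the differences of 0.319 and 0.340 points passed the threshold. The tdLN over spleen difference, not past the threshold, turned to -0.0192 with TRBC in the denominator, and that of the Trav11 share of Traj18 UMIs to 3.31 with clonotypes of at least 2 UMIs and 0.455 with each clonotype counted once. With each clonotype counted once, the mean member share was 0.0329% in tumor, 0.0428% in spleen and 0.0564% in tdLN, the Trav11 share of Traj18 2.13%, 2.50% and 2.95%, the Gly-Asp share 28.0% in spleen and 28.3% in tdLN, and the ratio to control IgG 0.297 for the IL-10-Fc tumor, 0.372 for the IL-10-Fc spleen, 0.584 for the BF10 spleen and 0.920 for the αCSF1R tdLN. With clonotypes of at least 2 UMIs, the tdLN mean was 0.540%, the Trav11 share of Traj18 there 22.0%, the Gly-Asp share in spleen 88.6%, and the ratio 1.03 for the αCSF1R tdLN, now above 1, and 0.871 for the BF10 tdLN, and 9 forms were left. With TRBC in the denominator, the mean was 0.00686% in tumor and 0.124% in tdLN, and the ratio 0.375 for αCSF1R and 0.261 for BF10 in the tdLN. With the leading CDR3 alone, the tumor mean was 0.00678% and the BF10 tumor ratio 0.151. With V11N added, the tumor mean was 0.0511%, the Trav11 share of Traj18 in tumor 4.27%, and the tumor ratio 0.267 for IL-10-Fc and 0.157 for BF10. Merging CDR3s 1 base apart gave Gly-Asp shares of 89.1% in spleen and 88.2% in tdLN and 8 forms. At 7 or more reads per UMI, the BF10 tdLN ratio was 0.779, Trbv13 in tdLN 16.1%, Trbv29 in spleen 14.8% and Trbv1 in spleen 5.43%. Trbv13 in tumor was 15.4% and Trbv29 in tdLN 8.14% with each clonotype counted once, and in clonotypes of at least 2 UMIs Trbv13 in tdLN was 16.1% and Trbv29 6.57%. The causes were not tested. V11 without V11D gave no value, because every member was listed with both joined, and the αCSF1R tumor gave no ratio for the leading CDR3 or for clonotypes of at least 2 UMIs, having 0. No paired analysis by replicate number was possible because each treatment and tissue has 1 library and the labels carry no replicate numbers. The tumor values rest on 1 to 21 member UMIs and allow no statement on treatment.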
